A study of Mus musculus with 1920 samples.

Results

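MHC class II genes were measured in single intestinal stem cells (ISCs) sorted from young and aged mice. The genes described are Ciita, H2-Aa, H2-Ab1, H2-Eb1, Cd74, H2-DMa and H2-DMb1, which were chosen by name, 7 of the 55471 genes in the count table, and they were followed across the 1836 of 1920 cells with at least 1000 detected genes. The study compared ISCs of 3 young and 4 aged mice by SMARTseq2, a plate-based protocol that reads transcripts of 1 cell per well. All 7 mice, young and aged alike, carried the Lgr5 knock-in allele B6.129P2-Lgr5tm1(cre/ERT2)Cle/J, in which an eGFP reporter and a tamoxifen-inducible Cre follow the stem cell gene Lgr5, on a C57BL/6 background. The cells were the GFP-high fraction of dissociated small intestinal crypts, so that cells in which the reporter was low or silent were not sampled. Age in weeks for the mice used for single-cell sequencing is not given in the sources used here.

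MHC class II molecules present peptides to CD4+ T cells and are best known from dendritic cells, macrophages and B cells, but the epithelium of the small intestine also makes them. An alpha and a beta chain pair in the endoplasmic reticulum around the invariant chain Cd74, which blocks the groove and guides the complex to endosomes. There proteases trim Cd74, and the H2-DM heterodimer, made of H2-DMa and a beta chain, exchanges the remaining fragment for peptide. Transcription of the whole set is switched on by Ciita, a co-activator that interferon gamma can induce and that binds no DNA itself but docks on factors bound at the conserved X and Y boxes of the promoters. Mice of the C57BL/6 haplotype make the I-A molecule from H2-Aa and H2-Ab1 but no functional E alpha chain, so that the H2-Eb1 chain lacks its usual partner.

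Ciita (ENSMUSG00000022504) lies on chromosome 16 at 10480059 to 10528418 of GRCm38. The I-A chains H2-Aa (ENSMUSG00000036594) and H2-Ab1 (ENSMUSG00000073421) lie on chromosome 17 at 34282744 to 34287823 and at 34257689 to 34269419, and H2-Eb1 (ENSMUSG00000060586) at 34305867 to 34316674. H2-DMa (ENSMUSG00000037649) spans 34119541 to 34139101 and H2-DMb1 (ENSMUSG00000079547) 34153072 to 34160230 in the same region. Cd74 (ENSMUSG00000024610) lies outside this cluster. Gene positions in this text span all annotated exons and introns. Levels per length are divided by the annotated exon bases of a gene, without introns.

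The promoter windows are shown because the X and Y boxes are the DNA on which Ciita acts. RefSeq promoter windows on GRCm38.p6, from 250 bases before to 50 bases after a gene's start, were at hand for H2-DMa, H2-DMb1, H2-Aa and H2-Eb1. The stretches below run 5′ to 3′ on the gene's strand, with an X box word (CTNGNAACT) and a Y box word (TGATTGG) in capitals. They were taken from chr17:34153084-34153144 on the plus strand for H2-DMb1, from chr17:34287857-34287917 on the minus strand for H2-Aa and from chr17:34305763-34305822 on the plus strand for H2-Eb1.
H2-DMb1: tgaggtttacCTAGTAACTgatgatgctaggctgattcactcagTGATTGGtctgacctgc
H2-Aa: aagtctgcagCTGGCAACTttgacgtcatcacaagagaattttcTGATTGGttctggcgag
H2-Eb1: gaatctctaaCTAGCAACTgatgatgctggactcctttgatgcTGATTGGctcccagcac

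The X word was followed by the Y word after 25 bases in H2-DMb1 and H2-Aa and after 24 bases in H2-Eb1. The 2 windows of H2-DMa held neither word. Both words were chosen after these windows had been seen and were searched on both strands. Among 32851 promoter windows of the same length, 4.10% held the X word, 7.82% held the Y word and 0.350% held both, while 6 windows (0.0183%) had the Y word within 50 bases after the X word. A match of letters describes the window and does not show a bound site.

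The 1836 cells had a median of 305492 reads and of 9398.5 detected genes, with medians per mouse of 211790 to 344568 reads. Between 160 and 376 cells per mouse were kept, and the reads summed over a mouse ranged from 49447464 to 134408884. Epcam, an epithelial adhesion protein, had reads in 99.7% of the cells, and Lgr5 in 96.9%. A number in the sample titles was taken as the code of a sequencing lane and is called the lane below. The labels do not say what it stands for, and it could also mark a sorting plate. These codes followed the mice in part: 3 of 5 lane codes held cells of an aged and a young mouse, and those of aged mouse 4 and young mouse 3 held 1 mouse each. The transcripts carried no molecular identifiers, so that reads are not independent molecules and all intervals given here cover counting error only.

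Nearly all sorted cells had class II reads. The regulator Ciita had at least 1 read in 57.6% of cells (1058), with a median of 9 reads in positive cells. Among the chains, H2-Ab1 was read in 95.2%, H2-Eb1 in 89.9% and H2-Aa in 83.4% of cells. The invariant chain Cd74 was read in 98.7% of cells, with a median of 394 reads in positive cells. The peptide exchange subunits H2-DMa and H2-DMb1 were read in 85.5% and 68.5% of cells. The order of the levels per length, in CPM (reads of a gene scaled to a common library total) per kilobase of exon and averaged over the 7 mice, was Cd74 (1286), H2-Ab1 (315), H2-Eb1 (97.5), H2-Aa (78.9), H2-DMb1 (32.5), H2-DMa (24.6) and Ciita (3.50). The highest mouse exceeded the lowest 4.26-fold for Cd74 and 7.30-fold for H2-Aa, so that over mice the ranges of neighbours in this order overlapped, save those of H2-DMa and Ciita. Within a mouse, however, the order was the same in 7 of 7 mice. Per length, H2-Eb1 exceeded H2-Aa by 1.08-fold to 1.59-fold and H2-DMb1 exceeded H2-DMa by 1.06-fold to 2.10-fold. These 2 steps rest on the exon lengths. Exons summed to 3.80 kb in H2-Aa beside 1.94 kb in H2-Eb1, and to 3.45 kb in H2-DMa beside 1.68 kb in H2-DMb1. In CPM alone, H2-Aa lay above H2-Eb1 in every mouse, and H2-DMa above H2-DMb1 in every mouse but aged mouse 3. Each of the 6 steps per length reached the smallest p that an exact two-sided permutation of signs over 7 mice can give (0.0156, unadjusted). The order was read from these same values, so that this p is no independent support for it.

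Taking aged mice 1 to 4 and then young mice 1 to 3 in order, Ciita reached 54.3, 23.2, 18.4 and 13.2 CPM in the aged and 15.9, 40.02 and 68.5 CPM in the young mice. Of the chain genes, H2-Ab1 stood at 1746, 634, 659 and 262 CPM in the aged and at 317, 1019 and 1022 CPM in the young mice. H2-Aa stood at 662, 262, 200.06 and 99.6 CPM in the aged and at 90.8, 372 and 412 CPM in the young mice. In all 3 genes aged mouse 1 was high, aged mouse 4 and young mouse 1 were low, and the groups overlapped. H2-Eb1, the chain without its E alpha partner, was measured at 365, 169, 129 and 81.2 CPM in the aged and at 55.6, 269 and 258 CPM in the young mice. Cd74 was measured at 4010, 1701, 2088 and 941 CPM in the aged and at 1368, 2279 and 2726 CPM in the young mice. The order of the mice was again alike, with aged mouse 1 on top. H2-DMa reached 175, 67.1, 62.7 and 34.5 CPM in the aged and 60.8, 105 and 89.6 CPM in the young mice. H2-DMb1 reached 107, 44.1, 64.1 and 18.1 CPM in the aged and 35.8, 54.1 and 58.5 CPM in the young mice. Aged mouse 1 was thus the highest mouse for 6 of 7 genes, Ciita being highest in young mouse 3, while aged mouse 4 was lowest for 5 genes and young mouse 1 for H2-Aa and H2-Eb1.

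**Figure D1:**
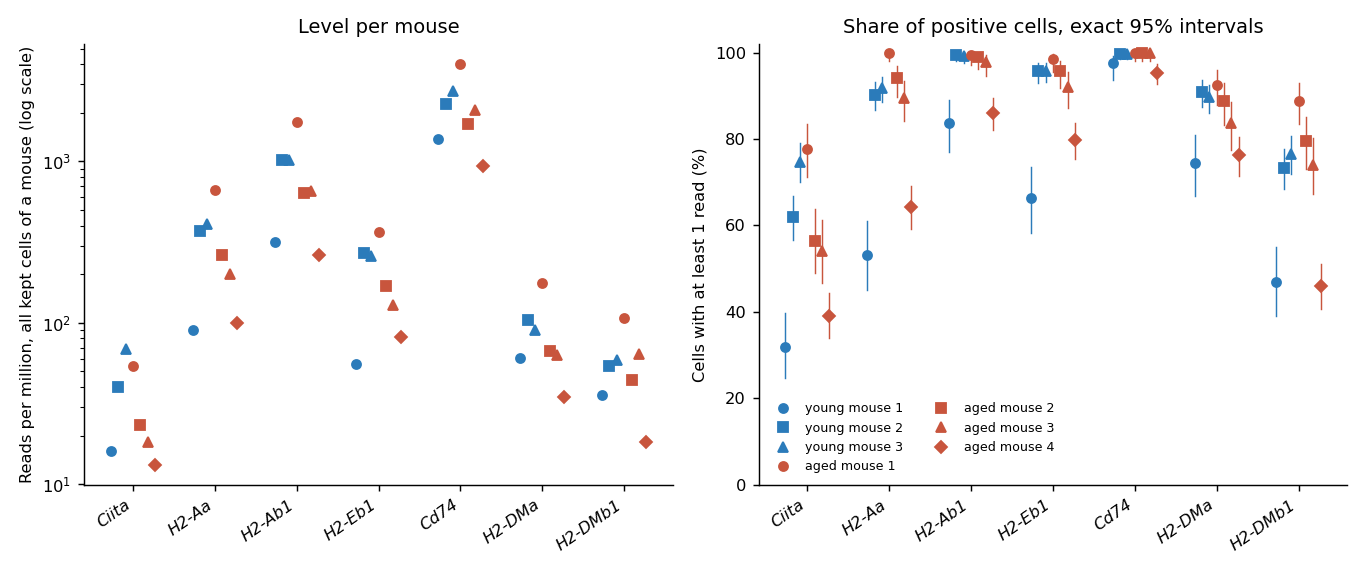
Level in CPM on a log axis (left) and share of cells with at least 1 read in percent with exact 95% binomial intervals (right) for the 7 genes, with 1 point per mouse, young in blue and aged in red. Aged mouse 1 has the highest level for 6 genes, and aged mouse 4 and young mouse 1 lie at the bottom.

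The difference between young and aged ISCs was the question of the study, and the values of the groups overlapped for each of the 7 genes. Summed per mouse, 0 of 7 genes were called by edgeR's quasi-likelihood test at a Benjamini-Hochberg adjusted p of 0.05, against a background of 0% (0 of 20957 genes tested, of which 1098 had an unadjusted p under 0.05 and 177 were called by DESeq2). The log2 difference of aged against young was 0.09 (SE 0.42) for Cd74, 0.12 (SE 0.57) for H2-Ab1, 0.12 (SE 0.62) for H2-Aa and -0.01 (SE 0.57) for H2-Eb1. It was 0.05 (SE 0.45) for H2-DMa, 0.29 (SE 0.47) for H2-DMb1 and -0.56 (SE 0.53) for Ciita. These errors leave room for differences of the size of the estimates in both directions. Without aged mouse 1 the difference of Cd74 was -0.36 and that of Ciita -1.12, with neither gene called.

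Shares of positive cells gave the same picture. In the same order of mice, Ciita was positive in 77.8%, 56.5%, 54.0% and 39.1% of aged cells, and in 31.9%, 61.9% and 74.7% of young cells, so that the groups overlapped. The aged mice averaged 56.8% ± 15.9 (SD, n = 4), and the young mice 56.2% ± 22.0 (SD, n = 3), with an exact two-sided permutation p of 0.971. H2-Aa was positive in 100%, 94.1%, 89.4% and 64.2% of cells in the aged and in 53.1%, 90.3% and 91.8% in the young mice, with an exact permutation p of 0.514. Cd74 was positive in 95.4% to 100% of cells of every mouse. Of the 7 genes, 0 had shares without overlap between the groups, against 5.22% of all 20957 genes, and with 35 divisions of the mice the smallest p that this exact permutation test can give is 0.0286. Without aged mouse 4, Cd74 alone did not overlap (100% in each of the 3 aged mice left), at an exact permutation p of 0.1. Thinning each of 1732 cells to 100000 reads, with 104 shallower cells left out, gave a Ciita share of 77.7%, 48.0%, 44.3% and 30.5% in the aged and of 28.1%, 54.5% and 67.2% in the young mice.

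Within a lane code, Cd74 was 4010 CPM in aged mouse 1 beside 2490 CPM in young mouse 2, 2088 CPM in aged mouse 3 beside 1368 CPM in young mouse 1, and 1701 CPM in aged mouse 2 beside 2101 CPM in young mouse 2. Cd74 was thus higher in the aged mouse in 2 of the 3 shared lanes, as were the other genes but H2-DMb1. H2-DMb1 was higher in the aged mouse in 3 of 3 lanes, at 107 beside 71.4 CPM, 64.1 beside 35.8 CPM and 44.1 beside 39.5 CPM in the same order. Young mouse 2, which was split over 2 lanes, differed between them 1.18-fold for Cd74, 1.26-fold for Ciita and 1.81-fold for H2-DMb1. From the lowest to the highest of the 7 mice the spread was 4.26-fold, 5.18-fold and 5.92-fold, a range over more values than these 2 lanes. Aged mouse 4 and young mouse 3 each had a lane of their own, so that lane and mouse cannot be told apart there. A fit with the lane as a block, in which young mouse 2 enters once per lane and replication is overstated, gave differences of 0.39 (SE 0.20) for Cd74, 0.55 (SE 0.30) for H2-Aa and 0.01 (SE 0.21) for Ciita. The difference of H2-DMb1 was 0.59 (SE 0.16) in this fit, with an unadjusted edgeR p of 0.00995 and an edgeR adjusted p of 0.555, and 0 of the 7 genes were called.

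In single cells the genes formed a graded range. Of all cells, 773 (42.1%) had reads of all 7 genes, 487 of 6, 272 of 5, 138 of 4, 80 of 3, 62 of 2 and 18 of 1, and 6 cells had none. Cells with all 7 made up 70.9%, 46.2%, 39.7% and 19.4% of the aged mice, in order, against 15.0%, 45.9% and 56.6% of the young, so that aged mouse 4 and young mouse 1 were low here as well. Of the 6 cells without class II reads, 5 had Epcam reads, and their median depth was 113848 reads. The level of Cd74 in a cell ran from 148 CPM at the 10th percentile over a median of 1397 CPM to 4076 CPM at the 90th percentile. Cells below 100 CPM of Cd74 made up 20.2% of aged mouse 4 and 20.0% of young mouse 1 but 0.529% of aged mouse 1.

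**Figure D2:**
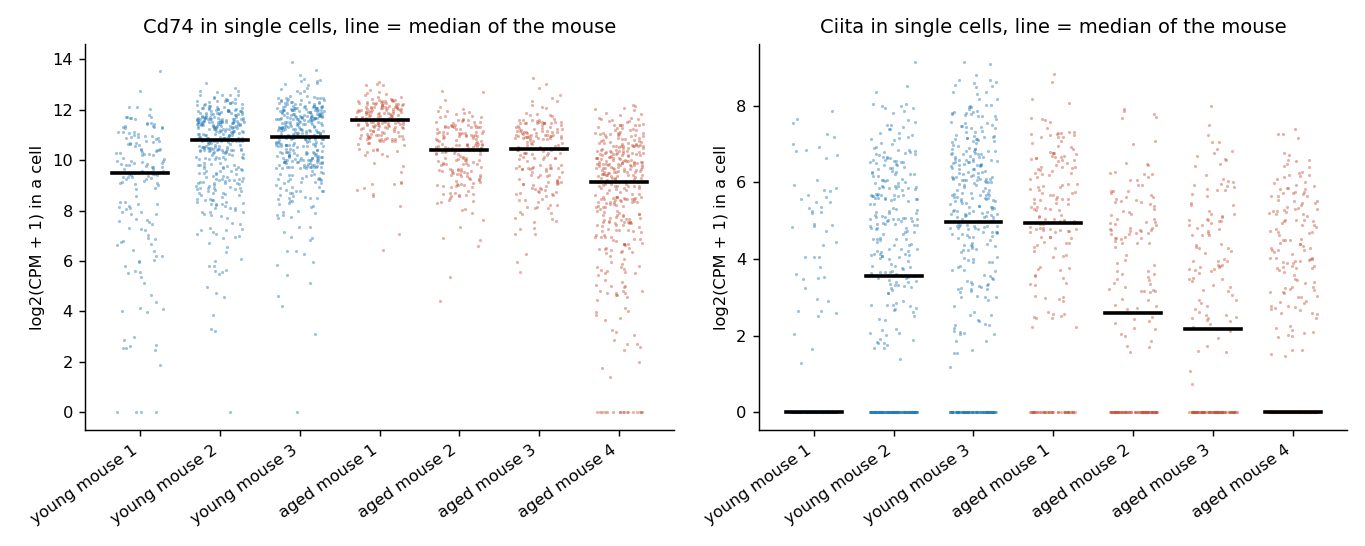
Level of Cd74 and of Ciita in every kept cell of the 7 mice, as log2(CPM + 1), with a line at the median of each mouse. Cd74 is spread continuously with a tail of low cells in aged mouse 4 and young mouse 1, whose medians of Ciita are 0.

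Marker lists of immune cells summed to low levels. Reads of Ptprc, the pan-leukocyte phosphatase CD45, were found in 23 cells, all 23 of them with Epcam reads, and the summed class II level of these cells had a median of 1545 CPM beside 2307 CPM in the other cells. The T cell list summed to 0.173 to 2.56 CPM in aged and 0.202 to 0.566 CPM in young mice, with 6 of 6 genes read and 0 of them in 5% of cells. The B cell list summed to 0.594 to 1.84 CPM and 0.708 to 1.24 CPM, with 5 of 5 genes read and 0 in 5% of cells. The myeloid and dendritic list summed to 7.32 to 11.7 CPM and 5.93 to 13.5 CPM, with 7 of 8 genes read, 4 of them in 5% of cells and the dendritic receptor Flt3 at 0. Reads of this list were found in 44.2% of cells. Its gene Csf1r had reads in 304 cells (16.6%), with a median of 2 reads in positive cells. The pan-leukocyte list summed to 0.311 to 1.61 CPM and 0.528 to 3.70 CPM, with 5 of 5 genes read and 0 in 5% of cells. The 19 cells with the highest summed class II level, 12614 to 21318 CPM, came from 6 mice, all had Epcam reads, 18 had Lgr5 reads, 15 were led by ISC markers and 0 had Ptprc reads.

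The levels of the chains and of Cd74 varied together from cell to cell. Spearman's rank correlation over the cells of a mouse, averaged over the 7 mice, was 0.86 for Cd74 with H2-Ab1 (0.80 to 0.92 in single mice), 0.76 for H2-Aa with H2-Ab1, 0.75 for Cd74 with H2-Aa, and 0.71 to 0.74 for the pairs of H2-Eb1 with the other chains. Pairs with H2-DMa or H2-DMb1 but without Ciita lay between 0.35 and 0.51. Pairs with Ciita were the loosest, at 0.23 to 0.32. These coefficients describe 160 to 376 cells per mouse that share library preparation and depth. Ciita also had the fewest reads in positive cells of the 7 genes. On cells thinned to 100000 reads the pairs with Ciita lay at 0.21 to 0.33, with 0.28 for Cd74 and 0.33 for H2-Aa. Over all 21 pairs the median was 0.463, and it lay between 0.314 and 0.563 in single mice.

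**Figure D3:**
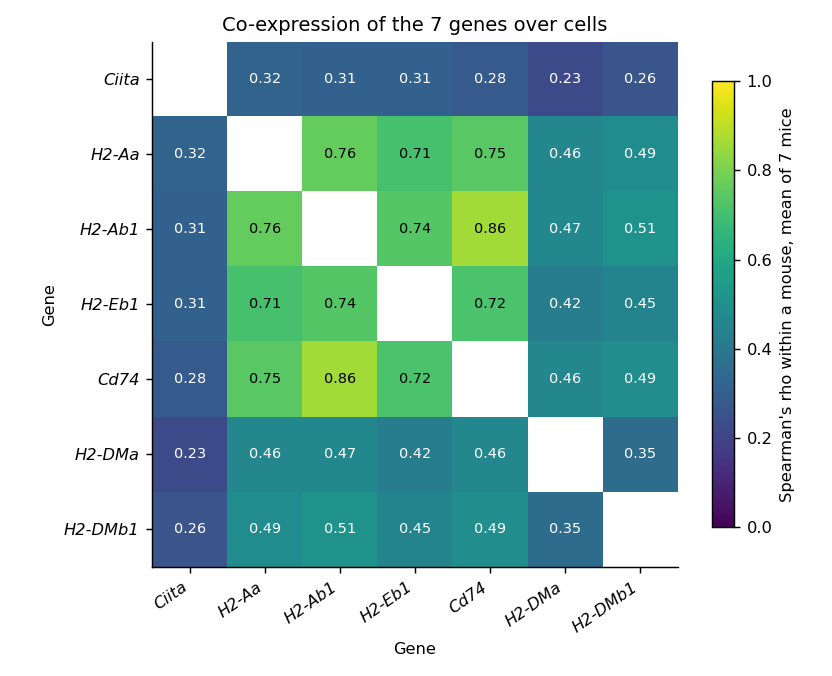
Heat map of Spearman's correlation over cells, averaged over the 7 mice, for each pair of the 7 genes. Cd74, H2-Aa, H2-Ab1 and H2-Eb1 form a block at 0.71 to 0.86, the H2-DM genes follow at 0.35 to 0.51 and Ciita is lowest at 0.23 to 0.32.

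Cells with Ciita reads had more Cd74. The median of Cd74 in Ciita-positive against Ciita-negative cells was, from aged mouse 1 to 4, 3250 against 2356 CPM, 1516 against 1086, 1461 against 1232 and 888 against 348 CPM. From young mouse 1 to 3 it was 959 against 609, 2049 against 1346 and 2295 against 1174 CPM. The positive cells were higher in each of the 7 mice. They were also sequenced deeper in 6 of the 7, and the part of depth in this difference was not tested. In cells without Ciita reads the median of Cd74 was 348 CPM or more in every mouse.

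Genes outside the set whose level in a cell was most like the mean of the 7 genes were ranked by the same coefficient among 17049 genes, whose median was 0.05 and whose 95th percentile was 0.15. The 12 highest were Mgam (0.51), a brush border disaccharidase, H2-D1 (0.49), Naaladl1 (0.44), Osr2 (0.44), Psmb8 (0.43), H2-T23 (0.41), Gm20496 (0.41), B2m (0.40), Ceacam10 (0.39), H2-K1 (0.39), Tapbp (0.36) and Slc27a2 (0.36). Of these, H2-D1, H2-K1, H2-T23 and B2m are chains of MHC class I, Psmb8 is an immunoproteasome subunit and Tapbp helps to load peptide on class I. Among the lowest were Onecut2 (-0.27), Gkn3 (-0.23), Lars2 (-0.22) and Dmbt1 (-0.22). Gkn3 is 1 of the ISC markers used here, and its coefficient was above 0 in 1 of 7 mice. The coefficient was 0.23 for Irf1 and 0.22 for Nlrc5, the class I counterpart of Ciita. From aged mouse 1 to 4, Nlrc5 ran at 10.8, 1.90, 0.573 and 0.578 CPM, and from young mouse 1 to 3 at 0.0809, 6.53 and 14.4 CPM. It was highest in young mouse 3, as was Ciita, and the groups overlapped.

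Ciita, H2-Aa, H2-Eb1 and Cd74 had a lower level in cells with high cell cycle genes. Within each mouse the tercile of cells with the highest mean of 65 cycle genes (31 of S phase, 34 of G2 and mitosis) was set against the lowest tercile, 611 cells each, and reads were summed per mouse and class. By edgeR's quasi-likelihood test with mouse as a block, 4 of 7 genes were lower in cycle-high cells, against a background of 8.26% of 16626 genes called lower. The level of Cd74 in cycle-high against cycle-low cells, after TMM scaling, was 3209 against 4570 CPM, 1780 against 1871, 1813 against 2098 and 895 against 1260 CPM from aged mouse 1 to 4. For the young mice, in order, it was 861 against 1435, 2050 against 2224 and 2476 against 3110 CPM. It was lower in 7 of 7 mice, by 0.07 to 0.74 on the log2 scale.

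The fitted log2 difference of cycle-high against cycle-low cells was -0.35 (SE 0.08) for Cd74 with an edgeR adjusted p of 0.0133 and -0.37 (SE 0.07) for H2-Eb1 with an edgeR adjusted p of 0.00572. It was -0.43 (SE 0.11) for H2-Aa, at an edgeR adjusted p of 0.0187, and -0.78 (SE 0.22) for Ciita, at an edgeR adjusted p of 0.0321. H2-Aa and H2-Eb1 were lower in 7 of 7 mice and Ciita in 6 of 7. The exception was aged mouse 1, with Ciita at 52.5 CPM in cycle-high and 49.2 CPM in cycle-low cells. The call of Ciita was lost when aged mouse 2, 3 or 4 or young mouse 1 or 2 was left out. H2-Ab1 (-0.30, SE 0.10) and H2-DMb1 (-0.48, SE 0.19) missed the threshold at edgeR adjusted p of 0.0525 and 0.104, and H2-DMa was at 0.00 (SE 0.15). With library totals in place of TMM factors, an alternative chosen after seeing the data, the median of all genes moved from -0.02 to 0.09, Cd74 (-0.24) and H2-Aa (-0.32) missed the threshold, and H2-Eb1 (-0.26) and Ciita (-0.67) passed it at edgeR adjusted p of 0.0378 and 0.0485. On that scale Cd74 was lower in 5 of 7 mice.

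**Figure D4:**
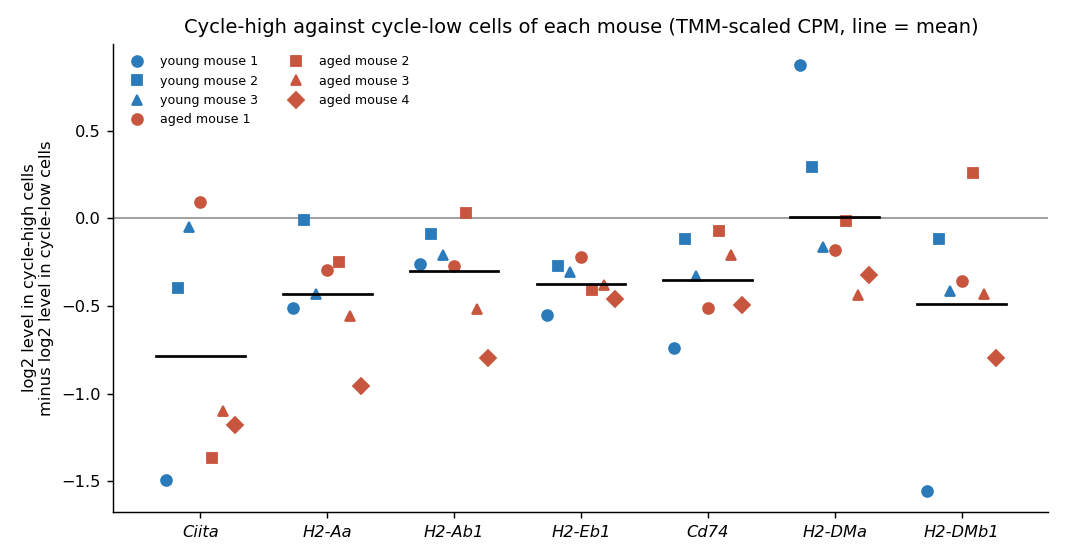
Log2 level in cycle-high minus log2 level in cycle-low cells for the 7 genes, with 1 point per mouse on TMM-scaled CPM and a line at the mean. All 7 mice lie below 0 for Cd74, H2-Aa and H2-Eb1, and H2-DMa scatters around 0.

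The share of positive cells did not follow the summed level. H2-DMa was positive in more of the cycle-high than of the cycle-low cells in 7 of 7 mice, H2-Eb1 and H2-DMb1 in 6, H2-Ab1 and Ciita in 5, and H2-Aa in 4, while Cd74 was positive in more cells in 2 mice and in equal shares in 5. H2-Eb1, with the lower summed level in cycle-high cells, was positive in 91.9% ± 12.4 of these (SD, n = 7) beside 86.3% ± 10.2 of cycle-low cells. On cells thinned to 100000 reads, 597 cycle-high and 563 cycle-low, the share was higher in 7 mice for H2-DMa, in 6 for H2-Ab1, in 5 for H2-Aa, H2-Eb1 and H2-DMb1, in 4 for Ciita and in 3 for Cd74.

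The classes differed in other respects too. Cycle-high cells had more detected genes (median 9986 against 8339) at similar depth (308298 against 295240 reads), and were led by ISC markers in 90.0% against 75.8% of cells and by Paneth markers in 2.95% against 13.4%. In ISC-led cells alone the difference was -0.34 for Cd74, -0.33 for H2-Eb1 and -0.28 for H2-Ab1, all 3 called, while H2-Aa (-0.18) and Ciita (-0.56) missed the threshold. With S phase genes alone only Cd74 was called, at -0.32. The immune lists were low in both classes: cycle-high and cycle-low cells held 9.47 and 8.07 CPM of the myeloid and dendritic list, 3.46 and 0.577 CPM of the pan-leukocyte list, 1.22 and 0.935 CPM of the B cell list and 0.385 and 0.206 CPM of the T cell list. Without the 363 cells with reads of Ptprc, Cd3e, Cd79a, Csf1r, Itgax or Laptm5, a set that covers the immune lists in part, the difference of Cd74 was -0.34. Ranked cell by cell, in contrast to the summed reads, the mean coefficient with the cycle score was -0.03 for Cd74, -0.005 for H2-Eb1, 0.008 for H2-Aa and 0.03 for Ciita. With the proliferation marker Mki67 it was -0.06 for Cd74 and H2-Eb1, -0.05 for Ciita and -0.04 for H2-Aa. The difference between summed levels was thus not seen as a rank trend over cells. With the S phase list alone, Ciita had 0.12 and the mean of the 7 genes 0.14, each above 0 in 7 of 7 mice. With the G2 and mitosis list alone they had -0.01 and 0.02. Across all kept cells, 118 lay within 0.1 of a class boundary.

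Class II reads were also found in cells led by markers of other lineages. By the list of markers with the highest mean, 1491 cells were led by ISC, 174 by Paneth, 80 by enterocyte, 62 by goblet, 20 by tuft, 6 by enteroendocrine and 3 by stromal and endothelial markers. These are leading lists in a GFP-high sort and not sorted cell types. Set against ISC-led cells, the epithelial non-ISC cells gave 0 of 7 calls in edgeR's test, against a background of 10.7% of 17953 genes. The log2 difference was 0.02 (SE 0.19) for Cd74, 0.24 (SE 0.21) for H2-Ab1, 0.45 (SE 0.20) for H2-Aa, 0.20 (SE 0.12) for H2-Eb1, -0.24 (SE 0.18) for H2-DMa, 0.43 (SE 0.16) for H2-DMb1 and -0.08 (SE 0.25) for Ciita. With library totals the median of all genes moved from -0.09 to -0.44, the differences of Cd74, H2-Ab1 and H2-Eb1 turned to -0.33, -0.11 and -0.16, and H2-DMa was called at -0.59. Without aged mouse 1, H2-DMb1 was called at 0.55. Of the immune lists, Ptprc (7.23) and Lyz2 (6.15), a lysozyme of myeloid cells and a close relative of the Paneth lysozyme gene, were called higher in other-led cells, and without the same 363 cells the difference of Cd74 was 0.08 and that of H2-Aa 0.56.

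Paneth cells are the antimicrobial neighbours of ISCs at the crypt base. Paneth-led cells gave 0 of 7 calls, against a background of 2.94% of 16717 genes. H2-Aa was higher in Paneth-led than in ISC-led cells in 7 of 7 mice after TMM scaling (0.55, SE 0.17), at an edgeR adjusted p of 0.113. With library totals the mean log2 difference of H2-Aa over mice was -0.16. Enterocyte-led cells reached 10 in aged mice 3 and 4 only. In the 41 such cells of aged mouse 4, Cd74 was 2252 CPM beside 910 CPM in ISC-led cells and H2-Aa was 573 CPM beside 75.6 CPM. In the 15 cells of aged mouse 3, Cd74 was 1792 beside 2329 CPM and H2-Aa 322 beside 212 CPM. No test was made on 2 mice.

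H2-Aa, H2-Ab1, Cd74 and H2-DMb1 were higher where the ISC list was low. Setting the lowest against the highest tercile of cells by the mean log2(CPM + 1) of the ISC markers within each mouse, edgeR called 4 of 7 genes higher, against a background of 7.76% of 17114 genes. The level of Cd74 in the lowest against the highest tercile was 4723 against 3216 CPM, 1975 against 1590, 2068 against 1513 and 1276 against 975 CPM from aged mouse 1 to 4. For the young mice, in order, it was 1800 against 871, 2529 against 1608 and 3560 against 1847 CPM. Cd74 was higher in 7 of 7 mice after TMM scaling, and the fitted difference was 0.62 (SE 0.11) with an edgeR adjusted p of 0.00496. H2-DMb1 (0.85, SE 0.16) and H2-Ab1 (0.60, SE 0.12) were also higher in 7 of 7 mice and H2-Aa (0.87, SE 0.21) in 6 of 7, while H2-Eb1 (0.13), H2-DMa (0.46) and Ciita (-0.11) missed the threshold. With library totals the median of all genes moved from -0.04 to -0.33, and of the 4 calls that of H2-DMb1 alone was left (0.56, edgeR adjusted p of 0.0432). Cells of the lowest tercile were shallower, at a median of 271549 against 315589 reads.

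The share of positive cells ran against the summed level here as well for H2-Ab1. It was lower in the lowest than in the highest tercile in 7 of 7 mice for H2-Ab1 and H2-Eb1, in 6 for H2-DMa and Ciita, in 5 for H2-DMb1 and in 4 for H2-Aa and Cd74, with Cd74 equal in the other 3 mice. H2-Ab1 was positive in 92.2% ± 9.49 of cells in the lowest and 96.8% ± 5.30 in the highest tercile (SD, n = 7). On thinned cells, 536 and 598, the share was lower in 7 mice for H2-DMa, in 6 for H2-Eb1 and Ciita, in 5 for H2-Ab1 and H2-DMb1 and in 4 for H2-Aa and Cd74.

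Cell by cell, the rank relation with ISC markers did not follow the summed level. The mean log level of the 7 genes had a Spearman coefficient with Lgr5 of 0.21 (0.10 to 0.35, above 0 in 7 of 7 mice) and with the ISC list of 0.14 (-0.07 to 0.41, above 0 in 5 of 7). With Gkn3, another marker of that list, it was -0.23. For the 4 called genes the coefficient with the ISC list was near 0: 0.06 for Cd74 and H2-Ab1, 0.04 for H2-DMb1 and 0.03 for H2-Aa. With Lgr5 these lay at 0.12 to 0.20. The genes not called had 0.14 (Ciita) and 0.12 (H2-DMa and H2-Eb1) with the ISC list. Summed reads weigh cells with many reads most and ranks weigh all cells alike.

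**Figure D5:**
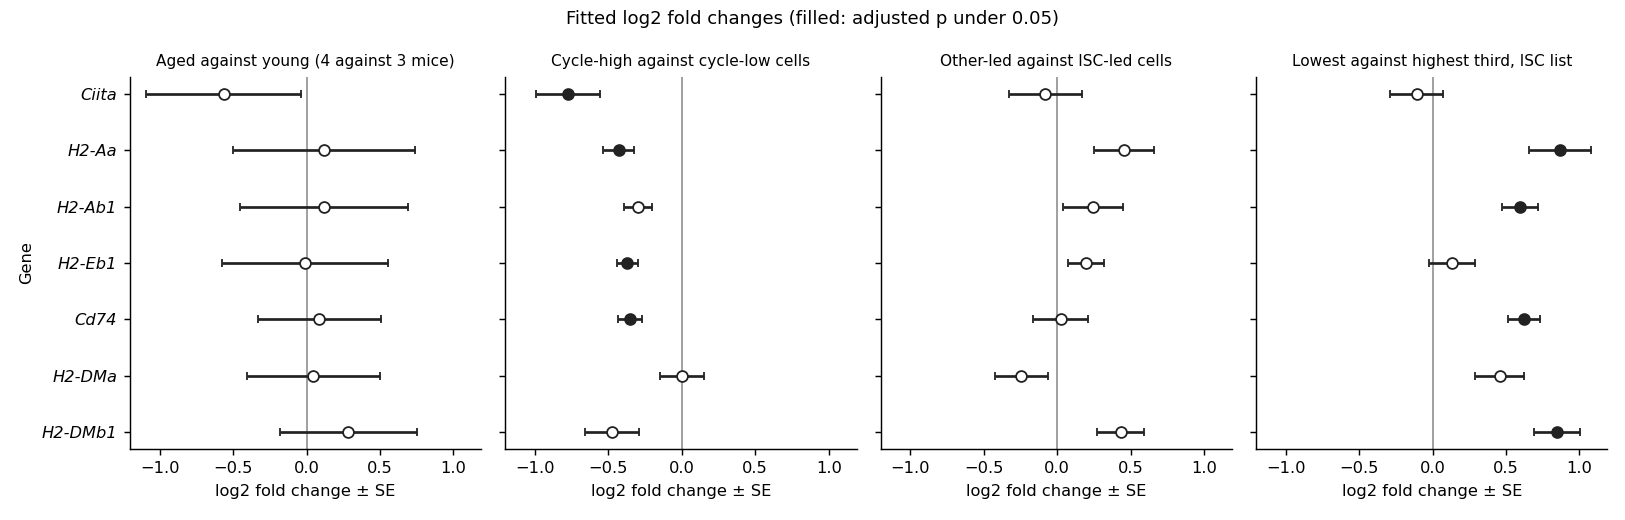
Fitted log2 fold change with its SE for the 7 genes in 4 edgeR fits: aged against young, cycle-high against cycle-low, other-led against ISC-led and lowest against highest tercile of the ISC list. Filled points have an adjusted p under 0.05: none for age and lineage, 4 below 0 for the cycle and 4 above 0 for the ISC list.

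The difference between ISC list terciles was also compared between ages, after the values of the single mice had been seen. For Cd74 it was 0.55, 0.31, 0.45 and 0.39 from aged mouse 1 to 4, against 1.05, 0.65 and 0.95 from young mouse 1 to 3. Every young mouse lay above every aged mouse, at the smallest exact permutation p possible (0.0286, unadjusted). H2-DMb1 likewise did not overlap, at 0.70, 0.16, 0.88 and 0.67 in the aged and 1.58, 0.96 and 0.99 in the young mice, with an exact permutation p of 0.0571. These 2 of 7 genes without overlap stand beside 6.66% of all 17114 genes, and Cd74 was the only 1 of 21 such comparisons, of 7 genes in 3 contrasts, with a p under 0.05. In the cycle contrast 0 of 7 genes lacked overlap, beside 5.28% of 16626 genes. The difference of Cd74 was also without overlap on library totals, at -0.16 to 0.22 in aged and 0.50 to 0.89 in young mice. So were those of H2-DMb1 (-0.31 to 0.50 and 0.79 to 1.24), H2-Ab1 (-0.30 to 0.51 and 0.62 to 0.75) and H2-DMa (-0.61 to 0.17 and 0.23 to 1.05). Those of H2-Aa, H2-Eb1 and Ciita overlapped. Library totals rescale the same reads, and no share over all genes was at hand for this scale.

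The rest of the antigen presentation pathway was followed in lists. For age, 0 genes of the 6 lists were called. Over all genes, 19.3% of 16626 were called between cycle-high and cycle-low cells (11% higher and 8.26% lower), and the calls of these short lists are read beside that share and beside the 10.7% called in other-led cells. In cycle-high cells, 3 of 4 tested genes of the class II pathway outside the set were called: Ifi30, a thiol reductase of endosomes, was higher (0.60), and the proteases Ctss (-0.996) and Ctsl (-1.44), which can cut Cd74, were lower. Ifi30 stood at 137 CPM, Ctss at 57.3 CPM and Ctsl at 30.1 CPM over all mice. Of the 7 transcription factors that bind class II promoters, Nfya (0.78) and Nfyb (0.53) were higher in cycle-high cells, and 5 were not called, so that 2 of 7 stood beside the 11% called higher. Nfyb stood at 59.1 CPM, Nfyc at 52.6 CPM and Creb1 at 39.5 CPM. The second beta chain H2-DMb2 had reads in 45 cells, H2-Eb2 in 7, the H2-Ea pseudogene in 6, and the H2-DM inhibitors H2-Oa and H2-Ob in 4 and 3 cells.

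Of 10 genes of interferon gamma signalling, the receptor chain Ifngr2 (-0.53) and Irf2 (-0.38) were lower in cycle-high cells, and Jak2 was higher in other-led cells (0.59), or 2 of 10 beside 19.3% of all genes and 1 of 10 beside 10.7%. The most abundant of this list were Irf8 (214 CPM), Ifngr1 (193 CPM) and Irf1 (167 CPM). Of 10 class I genes, Psmb9 was higher (0.68) and Tapbp lower (-0.42) in cycle-high cells, and H2-D1 (0.56) and H2-K1 (0.51) were higher in other-led cells, or 2 of 10 in each comparison beside 19.3% and 10.7% of all genes. H2-D1 stood at 512 CPM, B2m at 476 CPM and H2-K1 at 374 CPM. The costimulatory genes Cd80, Cd40 and Cd86 were scarce, with reads in 3.16%, 0.817% and 0.0545% of cells. Icosl had reads in 25.8% and Cd274 in 5.88% of cells. Of the costimulation and turnover list, the most abundant were March8 (28.4 CPM), Icosl (7.82 CPM) and Cd274 (0.882 CPM). Icosl was higher in cycle-high cells (1.19), and March8, a ubiquitin ligase, in other-led cells (0.62). Among responses to microbes, Reg3b (-3.01), Reg3g (-1.56) and Reg3a (-3.08) were lower in cycle-high and higher in other-led cells (3.06, 2.13 and 4.95), where Fut2 was also higher (5.34), or 3 and 4 of 7 genes tested. Reg3b stood at 492 CPM, Reg3g at 286 CPM and Duox2 at 21.0 CPM.

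Reads of overlapping or near-identical genes could enter some values. H2-DMb1 and H2-DMb2 are near-identical neighbours, H2-DMa overlaps Brd2 on the other strand, H2-Eb1 overlaps the antisense gene Gm20513, Ciita overlaps Dexi on the other strand and Cd74 holds the microRNA gene Mir5107. Whether strand was used in counting is not given in the sources used here, so that reads of such partners cannot be told apart.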

How the data were processed

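Single Lgr5 GFP-high cells were sorted from crypts into wells and sequenced by SMARTseq2. The deposited table, per the methods of the authors, holds unnormalized counts of reads for every gene in every cell, made from single-end reads mapped to GRCm38 with HISAT2. HTSeq is named in the submitters' processing notes without a version or role. Cells were required to have 1000 or more detected genes, which left 1836 of 1920. No columns held identical values, and 0 other columns were left unused. No doublet caller was run. Gene symbols came from GENCODE for 55230 of 55471 identifiers. The mouse was the replicate: counts were summed per mouse, or per mouse and class, and tested with edgeR 4.0.16 (quasi-likelihood, TMM, filterByExpr, Benjamini-Hochberg over all genes tested, threshold 0.05) in R 4.3.3. DESeq2 1.42.0 was an alternative. Classes were cut within each mouse from mean log2(CPM + 1) of marker lists, and log2 values of cells used a pseudocount of 1. Class differences per mouse on library totals used 0.5, and those of the 7 genes on TMM-scaled CPM used none. The shares of all genes whose class differences lacked overlap between ages used 0.5. Shares were compared by exact two-sided permutation of mice in scipy 1.17.1, unadjusted, with exact (Clopper-Pearson) 95% intervals. The fits were checked on simulated data. Named genes were the 7 genes, Lgr5, Mki67, Epcam and Ptprc, in each pathway list the 3 most abundant and those called, and the 12 genes most and 5 least like the set, of which some are not reported here. Members, lists and tests were chosen with earlier results of these data known. Scaling by library totals, thinned co-expression, shares of positive cells by class, the order per length and the age comparison of the ISC list effect were added after seeing the data. Nothing states that mice share litter or day.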

Additional observations from a re-analysis of the deposited data

Results flagged for a closer look

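Among the 4 aged mice, aged mouse 4 stood apart in the share of Cd74-positive cells, 95.4% beside 100% in each of the other aged mice, and in that of H2-Ab1-positive cells, 86.1% beside 97.9% to 99.5%. Its gap to the nearest aged mouse took 1 and 0.882 of the group's range, above the critical value of Dixon's test for 4 samples, in 35 such checks, of which chance gives about 1 in 20. For Cd74 the other 3 aged mice were at the ceiling of 100%, where any lower value gives a ratio of 1, so that this ratio carries no information on how far the mouse lay away. This mouse had a lane code of its own, and the part of whatever the code marks was not tested.

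The difference of Cd74 between the lowest and highest tercile of the ISC list was smaller in aged than in young mice by 0.46 on the log2 scale (aged minus young -0.46, exact permutation p of 0.0286, unadjusted, the smallest the design allows). It was the only 1 of 21 comparisons of this kind with a p under 0.05, and it was made after the values of the single mice had been seen.

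Class II reads were also present in the 84 cells left out for few detected genes, above the limit of 3 reads that a count of 0 allows. They held 67 reads of Cd74 in 31 cells, 30 of H2-Ab1 in 17 cells, 18 of H2-Eb1 in 15 cells and 9 of H2-Aa in 7 cells.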

How the results depend on the processing

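For age, no setting called any of the 7 genes. H2-Eb1 changed sign with DESeq2 (0.0019), RLE scaling (0.0013), the replicate block (0.27), ISC-led cells only (0.029) and the lane block (0.38), Ciita with the lane block (0.0089) and H2-DMa with library totals (-0.0019). Leaving out 1 mouse gave Cd74 -0.36 to 0.33, H2-Aa -0.57 to 0.48, H2-Ab1 -0.53 to 0.41, H2-Eb1 -0.55 to 0.28, H2-DMa -0.57 to 0.30, H2-DMb1 -0.17 to 0.58 and Ciita -1.12 to 0.031, 0 to 0 calls, and 0 to 1 genes without overlap in shares. Over all genes, 0 calls became 177 with DESeq2, 22 without the filter, 15 on thinned reads and 8 without aged mouse 1. Mice of the same number did not deviate together as a rule (correlations of -0.11, 0.18 and -0.22 over 20957 genes), so the replicate block pairs nothing known beyond a number. Pairs sharing a lane code had 0.15 (aged mouse 1, young mouse 2), 0.18 (aged mouse 2, young mouse 2) and 0.30 (aged mouse 3, young mouse 1). Aged mouse 4 and young mouse 3, with no lane code in common, had 0.30, and all other pairs lay below 0. The part of the lane code in these deviations was not tested. For the cycle, calls were 2 with library totals, 1 with S phase genes, 2 with an upper against lower split, and 3 to 4 without 1 mouse. H2-DMa, near 0, was -0.021 with DESeq2, -0.020 with RLE scaling, -0.0071 in ISC-led cells, -0.15 with S phase genes, -0.033 on thinned reads, -0.038 without cells with immune reads and -0.14 to 0.082 without 1 mouse. For other-led cells, calls were 1 with DESeq2, 1 with library totals, 4 for ISC list terciles, 1 for terciles with library totals and 0 to 1 without 1 mouse. Cd74 was -0.33 with library totals, -0.046 without the filter and -0.082 to 0.18 without 1 mouse, H2-Ab1 -0.11 and H2-Eb1 -0.16 with library totals, and H2-Eb1 -0.16 for terciles with library totals. H2-DMa was 0.46 for terciles and 0.16 with library totals, and Ciita 0.077 on thinned reads and -0.28 to 0.11 without 1 mouse. The causes were not tested. Median co-expression was 0.445 to 0.492 without 1 mouse. The age fit, with 3 against 4 mice, had standard errors of 0.42 to 0.62.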
